A study of Mus musculus with 12 samples.

Results

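Apoptosis genes of the mitochondrial and death receptor pathways were followed in J774A.1, a mouse macrophage-like cell line, after exposure to hypochlorous acid (HOCl). The set is 9 genes, chosen by name from 28977 gene IDs in the table: Bcl2, Bcl2l1, Mcl1, Bak1, Bid, Bcl2l11, Casp8, Casp9 and Xiap. All 9 had an ID in the table, and all 9 were among the 12026 genes kept, those with at least 1 FPKM in at least 3 of 12 libraries.

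HOCl is the oxidant that myeloperoxidase makes from hydrogen peroxide and chloride, and the title of the series speaks of mitophagy genes in murine macrophages. Messenger RNA was sequenced from 12 libraries in 4 groups of 3: cells given HOCl at 100 µM in HBSS, a balanced salt solution, cells given HOCl at 20 µM in HBSS, cells given HBSS alone (0 µM HOCl, the vehicle), and cells kept in cell media. Cells were exposed for 1 h and then kept for 24 h in full medium before RNA was taken. Doses described as lethal and sublethal were used, without a label that ties either word to 20 or 100 µM. All groups are 1 established line grown in DMEM with serum, with no genetic change named. Nothing in the labels says that replicates came from separate cultures, so the p-values cover no more than the spread between these libraries, which may be technical. Values are FPKM, which scale reads by exon length and by library depth, and rested on 17683950 to 21408600 reads per library, recovered from the spacing of the values.

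Proteins of the BCL2 family decide whether the outer mitochondrial membrane stays intact. Survival proteins such as BCL2, BCL-XL and MCL1 hold the pore-forming proteins BAX and BAK in check, BH3-only proteins such as BIM and BID relieve that hold or activate the pore formers, and released cytochrome c then lets APAF1 activate caspase-9. Caspase-8 acts below death receptors and can cut BID, which ties both routes together, and XIAP binds and inhibits active caspases. MCL1 is known for its part in the survival of some myeloid cells.

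The libraries showed macrophage transcripts. All 8 macrophage markers were kept, and their summed level was 3559 to 4061 FPKM in 100 µM libraries, 3208 to 3374 FPKM in 20 µM libraries, 3074 to 3378 FPKM in HBSS libraries and 3247 to 3394 FPKM in cell media libraries. No marker of T cells, B cells, fibroblasts, epithelium or endothelium passed 0.435 FPKM in any library. Cell media replicates 1 and 2 stood apart: they correlated at 0.988 with each other across genes and at 0.946 to 0.971 with the rest, while the lowest correlation among the other 10 libraries was 0.974. The tests were therefore run on all 12 libraries and on the 10 without these. The estimated differences among HBSS and HOCl groups are the same in both, and their errors are not. The typical standard error of a difference between 100 µM and HBSS was 0.132 on the log2 scale with 12 libraries and 0.0733 with 10. In bulk RNA, fewer cells of a kind and less RNA per cell cannot be told apart.

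All 9 genes were expressed in every library, and the survival genes Mcl1 and Bcl2l1 were the most abundant per length. In HBSS libraries, mean FPKM ran from Mcl1 (71.0 ± 3.04, SD, n = 3) through Bcl2l1 (58.4 ± 3.09), Bak1 (49.2 ± 3.57), Casp8 (38.0 ± 3.01), Bid (22.8 ± 1.91), Xiap (14.2 ± 0.979), Bcl2 (10.1 ± 1.84) and Casp9 (6.90 ± 0.473) to Bcl2l11 (6.82 ± 0.352). Only the last neighbours in that order, Casp9 and Bcl2l11, had overlapping ranges in HBSS. At 20 µM the ranges of Xiap and Bcl2 overlapped too. At 100 µM, Casp9 and Bcl2l11 no longer overlapped, whereas Bcl2l1 overlapped with Bak1 and Bcl2 with Casp9. In cell media Bcl2l1 stood first, and every pair of neighbours overlapped except Bak1 with Casp8 and Bid with Xiap. Among the 12026 kept genes the mean levels lay between the 46.4th percentile (Bcl2l11) and the 93.8th (Mcl1). Over the 10 libraries, the highest value of a gene exceeded its lowest by a ratio of 1.11 for Mcl1 up to 2.29 for Bcl2. The fewest reads behind any of these values were 600, for Casp9.

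**Figure D1:**
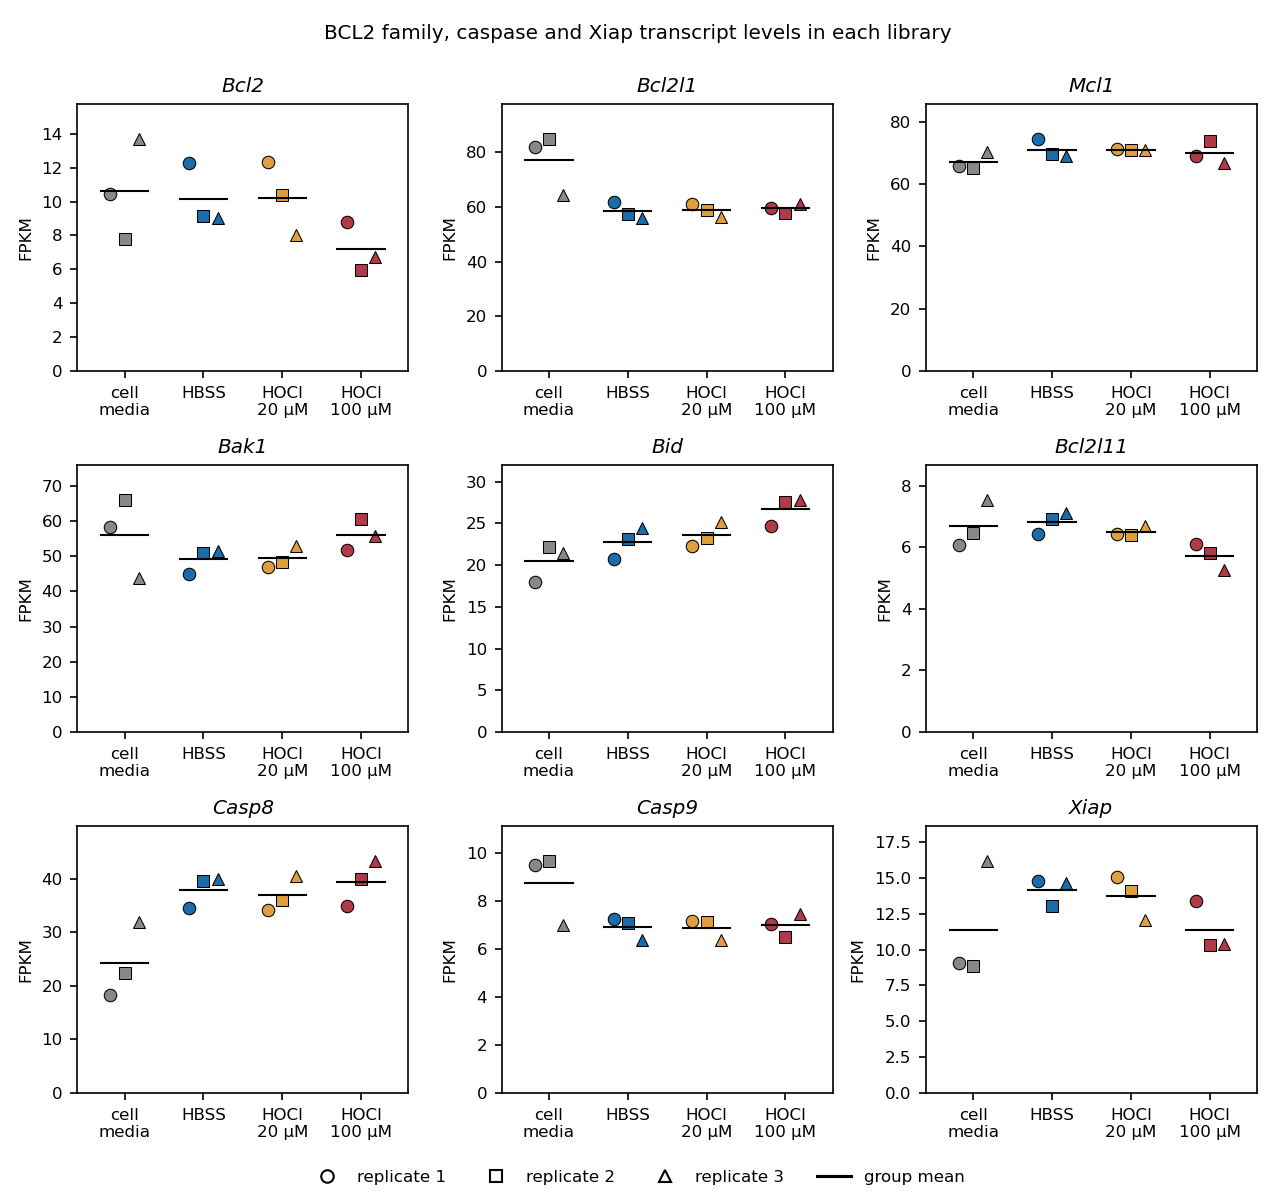
Transcript level in FPKM (vertical axes, each from 0) of 9 apoptosis genes in cell media, HBSS, 20 µM HOCl and 100 µM HOCl; each symbol is 1 library, its shape the replicate number, and the line is the group mean. At 100 µM all Bid and Bak1 values lie above, and all Bcl2 and Bcl2l11 values below, those of HBSS, while Mcl1, Bcl2l1, Casp8 and Casp9 overlap with HBSS.

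The comparison of 100 µM HOCl with its vehicle asks whether these genes differed a day after the higher dose. At 100 µM, Bcl2 and Bcl2l11 stood lower and Bak1 and Bid higher than in HBSS, each without overlap between the groups. None of the 9 differences passed an adjusted p of 0.05 in limma with Benjamini-Hochberg adjustment over all kept genes, with 12 or with 10 libraries, and limma-voom on recovered reads called 0 as well. At an unadjusted p under 0.05, 2 of 9 passed with 12 libraries, where 7.76% of all kept genes did, and 5 of 9 with 10 libraries, where 32.2% did. The share called was 0.0% of all kept genes with 12 libraries and 0.241% with 10, or 29 genes. Groups did not overlap for 4 of the 9 genes, against 34.1% of all kept genes, so this count is near the background. A fit with the replicate number as a block gave another result, but whether these numbers pair the libraries was not settled. With 10 libraries it called Bcl2, Bak1, Bid, Bcl2l11 and Xiap (limma adjusted p 0.0151 to 0.0460), among 2979 of the 12026 kept genes.

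Bcl2 encodes the founding survival protein of the family. It had 8.82, 5.98 and 6.75 FPKM in 100 µM libraries and 12.2, 9.12 and 9.01 FPKM in HBSS libraries. All 100 µM values lay below all HBSS values, although 100 µM replicate 1 lay close to HBSS replicates 2 and 3. The log2 difference was -0.45 (SE 0.21), with an adjusted p in limma of 0.636 with 12 libraries and 0.128 with 10.

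Bcl2l1, whose main product is BCL-XL, had 59.6, 57.8 and 60.9 FPKM in 100 µM libraries and 61.8, 57.5 and 55.8 FPKM in HBSS libraries. The groups overlapped throughout. The log2 difference was 0.03, with a 95% interval of -0.20 to 0.25 with 12 libraries and -0.09 to 0.14 with 10.

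Mcl1, a survival protein with a very short half-life, had 68.9, 73.8 and 66.8 FPKM in 100 µM libraries and 74.5, 69.8 and 68.8 FPKM in HBSS libraries. These groups also overlapped, and the log2 difference was -0.03 with a 95% interval of -0.18 to 0.13 with 12 libraries and -0.13 to 0.08 with 10. The summed level of the survival genes Bcl2, Bcl2l1 and Mcl1 was 136 ± 1.66 FPKM at 100 µM and 140 ± 7.93 FPKM in HBSS (SD, n = 3 each). Bcl2 made up 5.26% ± 1.06 of that sum at 100 µM and 7.22% ± 0.885 in HBSS, so most survival transcript came from Bcl2l1 and Mcl1 in both groups.

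Bak1 encodes the pore former BAK. It had 51.9, 60.6 and 55.6 FPKM in 100 µM libraries and 45.1, 51.0 and 51.5 FPKM in HBSS libraries. The lowest 100 µM library and the highest HBSS library were close together, without overlap. The log2 difference was 0.18 (SE 0.13), with an adjusted p in limma of 0.686 with 12 libraries and 0.135 with 10.

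Bid, the BH3-only protein that caspase-8 cuts, had 24.7, 27.5 and 27.8 FPKM in 100 µM libraries and 20.7, 23.1 and 24.5 FPKM in HBSS libraries. Every 100 µM value was above every HBSS value, the closest being 100 µM replicate 1 and HBSS replicate 3. The log2 difference was 0.22 (SE 0.10), with an adjusted p in limma of 0.636 with 12 libraries and 0.0964 with 10.

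Bcl2l11 encodes BIM, a BH3-only protein that binds all survival members. It had 6.12, 5.81 and 5.25 FPKM in 100 µM libraries and 6.43, 6.92 and 7.12 FPKM in HBSS libraries. Every 100 µM value lay below every HBSS value. The log2 difference was -0.22 (SE 0.09), with an adjusted p in limma of 0.627 with 12 libraries and 0.0733 with 10, the smallest among the 9 genes in both fits. The ratio of Bcl2l11 to Bid FPKM was 0.247, 0.211 and 0.189 in 100 µM libraries, and 0.310, 0.299 and 0.291 in HBSS libraries. The means were 0.216 ± 0.0297 at 100 µM and 0.300 ± 0.00993 in HBSS (SD, n = 3 each). The ratios could not overlap, since Bcl2l11 was lower and Bid higher without overlap, so they add no separate result. Values are summed over each gene, so splice forms of Bcl2l11 and Bcl2l1 that differ in activity cannot be told apart.

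Casp8, the initiator caspase below death receptors, had 34.9, 39.9 and 43.3 FPKM in 100 µM libraries and 34.5, 39.6 and 39.9 FPKM in HBSS libraries. Casp9, the initiator caspase of the apoptosome, had 7.03, 6.51 and 7.44 FPKM in 100 µM libraries and 7.24, 7.09 and 6.36 FPKM in HBSS libraries. Both caspases overlapped between the groups, with log2 differences of 0.05 (95% interval -0.32 to 0.42 with 12 libraries, -0.17 to 0.26 with 10) for Casp8 and 0.02 (-0.23 to 0.26 with 12 libraries, -0.14 to 0.17 with 10) for Casp9.

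Xiap, the caspase inhibitor, had 13.4, 10.3 and 10.4 FPKM in 100 µM libraries and 14.8, 13.0 and 14.6 FPKM in HBSS libraries. Replicates 2 and 3 at 100 µM lay below all HBSS libraries, and replicate 1 overlapped with them. The log2 difference was -0.30 (SE 0.19), with an adjusted p in limma of 0.669 with 12 libraries and 0.112 with 10.

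**Figure D2:**
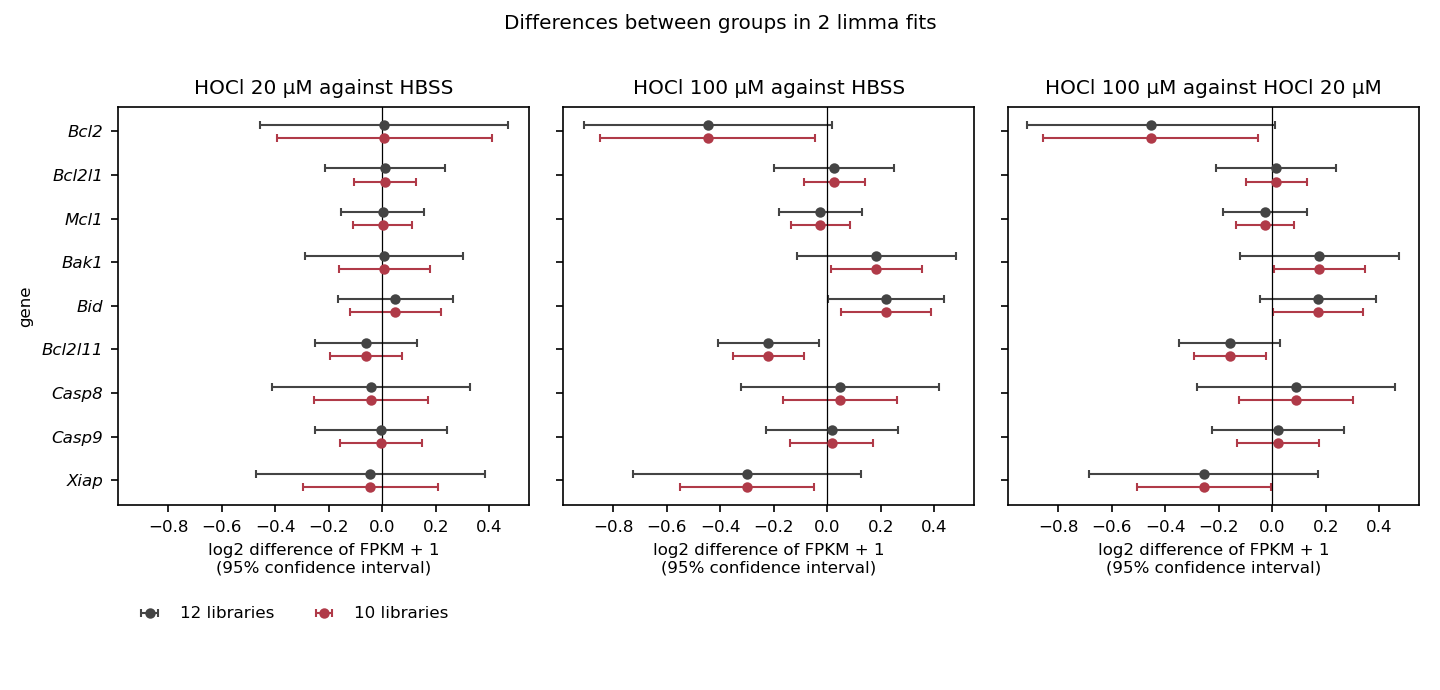
Log2 difference of FPKM + 1 for 9 genes (rows) in 3 comparisons (panels); points are limma estimates and bars 95% confidence intervals, dark for 12 libraries and red for 10. Intervals at 20 µM against HBSS all cross 0; at 100 µM against HBSS with 10 libraries those of Bcl2, Bak1, Bid, Bcl2l11 and Xiap lie on 1 side of 0.

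Exon length moved with the direction of these differences. Of the genes that stood lower at 100 µM, Bcl2 (9157 bases), Bcl2l11 (8029 bases) and Xiap (9469 bases) were the longest of the 9, while Bak1 (2407 bases) and Bid (3550 bases), which stood higher, were among the shorter. The same slope ran through all kept genes: in 4 equal classes from the shortest to the longest exon length, the median log2 difference between 100 µM and HBSS was 0.12, 0.05, -0.03 and -0.11. Relative to the HBSS mean, the median of the longest class differed from that of the shortest by -0.12, -0.27 and -0.30 in 100 µM libraries, by 0.05, -0.02 and -0.10 in 20 µM libraries, by 0.03, -0.07 and 0.03 in HBSS libraries and by -0.52, -0.72 and 0.04 in cell media libraries.

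With each library's length trend removed, an alternative chosen after the data were seen, the log2 differences between 100 µM and HBSS were -0.33 for Bcl2, -0.12 for Bcl2l11, -0.18 for Xiap, 0.14 for Bak1 and 0.22 for Bid. Bid was then the only 1 of the 9 whose groups did not overlap, where 30.4% of all genes with a known length did not. The value of Bid was the same to 2 decimals with and without the trend, while that of Bcl2l11 was -0.12 without it and -0.22 as measured. Bid, with 3550 bases, lies near the length where the class medians pass from 0.05 to -0.03. Removing the trend could therefore move it little, whatever its own difference. The part of exon length in these results was not tested further.

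**Figure D3:**
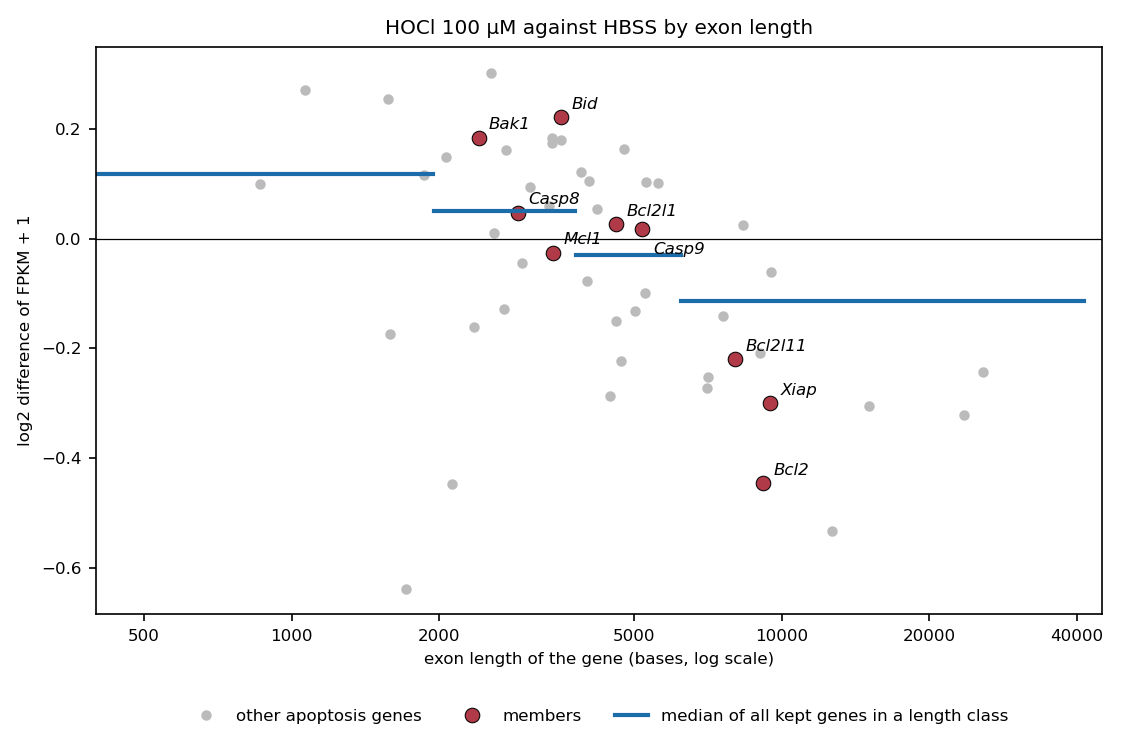
Log2 difference of FPKM + 1 between 100 µM HOCl and HBSS (vertical axis) against exon length in bases (horizontal axis, log scale) for the 9 genes (red, named) and 42 other apoptosis genes (grey); blue lines are the medians of all kept genes in each of 4 classes of exon length. Bcl2, Bcl2l11 and Xiap lie far right and below the median of the longest class, and Bid and Bak1 above the median of theirs.

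Bcl2 and Bak1 mirrored each other from library to library. In all 4 groups the library order of Bak1 was the exact reverse of that of Bcl2, the only such case among the 36 pairs of these genes. In HBSS, 20 µM and 100 µM libraries alike, replicate 1 had the most Bcl2 and the least Bak1, Bid and Casp8. How many of all kept genes are ordered in this way against Bcl2 was not counted. Over 10 libraries, Pearson's r of log2 values with Bcl2 was -0.987 for Bak1, -0.954 for Bid and 0.944 for Xiap. These r values pool the groups, so group differences and the length trend enter them. They were not computed with the trend removed. The ratio of Bcl2 to Bak1 FPKM was 0.170, 0.0987 and 0.121 in 100 µM libraries, 0.262, 0.214 and 0.151 in 20 µM libraries and 0.272, 0.179 and 0.175 in HBSS libraries. All 100 µM ratios lay below all HBSS ratios, but the highest at 100 µM, 0.170, lay close to the lowest in HBSS, 0.175. That separation follows from the lower Bcl2 and higher Bak1 values, each without overlap, and is no separate result. Bcl2l1 and Casp9 were the only pair that kept the same order in all 4 groups. With the length trend removed, the order of Bcl2 and Bak1 was reversed in 3 of 4 groups, and no pair was the same or reversed in all 4.

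Promoter sequence is shown for the 4 genes whose 100 µM and HBSS libraries did not overlap, a choice made by overlap alone. That count was near the background, and only Bid stayed without overlap once the length trend was removed. Xiap, with a log2 difference of -0.30, overlapped and is not shown. Each is the 250 bases before an annotated start of the gene from RefSeq on GRCm38.p6, 5′ to 3′ on the gene's strand. Capitals mark GC boxes (GGGCGG or its complement CCGCCC, both strands, the kind of site Sp1 is known to bind) and forkhead motifs (GTAAACA or TGTTTAC, bound by FOXO factors, which are known to activate Bcl2l11). The motifs share no letters with each other in these windows.
Bcl2, chr1:106714291-106714540, minus strand: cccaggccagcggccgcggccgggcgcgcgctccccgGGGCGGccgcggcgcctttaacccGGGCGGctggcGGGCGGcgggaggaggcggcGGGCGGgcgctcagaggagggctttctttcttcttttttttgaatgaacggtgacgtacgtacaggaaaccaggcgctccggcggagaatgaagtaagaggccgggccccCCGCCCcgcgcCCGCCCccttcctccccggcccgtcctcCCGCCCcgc
Bak1, chr17:27028628-27028877, minus strand: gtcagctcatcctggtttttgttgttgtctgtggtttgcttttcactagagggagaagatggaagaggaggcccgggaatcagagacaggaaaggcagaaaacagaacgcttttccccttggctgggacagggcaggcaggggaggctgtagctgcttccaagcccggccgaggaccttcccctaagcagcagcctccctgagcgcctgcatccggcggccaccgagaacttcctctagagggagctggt
Bid, chr6:120916825-120917074, minus strand: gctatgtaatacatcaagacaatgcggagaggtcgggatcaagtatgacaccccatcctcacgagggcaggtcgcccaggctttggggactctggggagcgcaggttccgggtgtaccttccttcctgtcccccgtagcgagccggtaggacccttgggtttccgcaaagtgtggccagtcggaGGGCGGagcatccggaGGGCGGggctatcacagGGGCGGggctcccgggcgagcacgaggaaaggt
Bcl2l11, chr2:128125788-128126037, plus strand: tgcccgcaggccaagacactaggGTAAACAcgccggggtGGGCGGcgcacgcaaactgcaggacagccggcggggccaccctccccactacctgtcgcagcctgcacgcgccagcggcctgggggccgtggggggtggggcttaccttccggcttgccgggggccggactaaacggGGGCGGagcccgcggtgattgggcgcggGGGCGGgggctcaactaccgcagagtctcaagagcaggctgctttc
The Bcl2 window held 7 GC boxes and that of Bak1 held 0, with 3 each in the windows of Bid and Bcl2l11. Bcl2l11 has another annotated start, whose window (chr2:128127325-128127574, not printed) held 2 GC boxes and 0 forkhead motifs. Among 32851 mouse promoter windows of this length, 32.7% held at least 1 GC box. The forkhead motif in the printed Bcl2l11 window began 227 bases before that start, and 3.17% of all windows held one. All 9 genes had at least 1 window, 14 in all, of which 8 held a GC box and 1, that of Bcl2l11, the forkhead motif. A match is a description of letters and not of binding.

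At the lower dose, the 9 genes lay close to the vehicle. Comparing 20 µM with HBSS, log2 differences lay between -0.06 (Bcl2l11) and 0.05 (Bid), and limma called 0 of 9, with 0 of 9 at an unadjusted p under 0.05, where 1.08% of all kept genes were. With 10 libraries the count was again 0 of 9, against 3.08%. No gene had groups that did not overlap, where 7.69% of all kept genes had. With 12 libraries the 95% intervals of the 9 genes reached from -0.47 to 0.47, and with 10 from -0.39 to 0.41. Differences up to that size are therefore not excluded for the genes with the widest spread. Mcl1 was the steadiest, at 71.3, 70.9 and 71.0 FPKM in 20 µM libraries and 74.5, 69.8 and 68.8 FPKM in HBSS libraries. Casp8 had 34.2, 36.1 and 40.4 FPKM in 20 µM libraries, close to the 34.5 to 39.9 FPKM of HBSS libraries. Bid had 22.3, 23.3 and 25.2 FPKM in 20 µM libraries and 20.7, 23.1 and 24.5 FPKM in HBSS libraries, so the overlap covered most of both groups.

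The doses were also set directly against each other, a comparison that shares the 100 µM libraries with the one above. Bcl2 had a log2 difference of -0.45 between 100 µM and 20 µM, Xiap -0.26, Bcl2l11 -0.16, Bid 0.17 and Bak1 0.18. None passed in limma without a block, where the lowest adjusted p among the 9 was 0.825 with 12 libraries and 0.151 with 10. The block fit with 10 libraries called Bcl2 and Bid (limma adjusted p 0.0278 and 0.0296), among 2088 of all kept genes. At an unadjusted p under 0.05, 0 of 9 passed with 12 libraries (4.0% of all kept genes) and 5 of 9 with 10 (26.2%). Bcl2l11 was the only 1 of 9 whose groups did not overlap, at 6.12, 5.81 and 5.25 FPKM in 100 µM libraries and 6.42, 6.38 and 6.69 FPKM in 20 µM libraries, where 28.3% of all kept genes did not overlap. Bid at 100 µM replicate 1, with 24.7 FPKM, lay inside the 20 µM range, and so did Bcl2 in the same library.

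The vehicle itself was set against cells kept in cell media, which asks what the salt solution alone did. Casp8 stood higher and Bcl2l1 lower in HBSS than in cell media, each without overlap. Casp8 had 34.5, 39.6 and 39.9 FPKM in HBSS libraries and 18.4, 22.5 and 31.9 FPKM in cell media libraries. Bcl2l1 had 61.8, 57.5 and 55.8 FPKM in HBSS libraries and 81.8, 84.8 and 64.3 FPKM in cell media libraries. In both genes cell media replicate 3 lay nearest to HBSS. The log2 differences were 0.66 (SE 0.17) for Casp8 and -0.38 (SE 0.10) for Bcl2l1, both with an adjusted p of 0.0711 in limma, so neither passed. With the replicate number as a block and 12 libraries, Casp8 was called (limma adjusted p 0.0431), among 193 of all kept genes.

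Without a block, limma called 0 of the 9 genes in HBSS against cell media, where 0.0166% of all kept genes, 2 in number, were called. Groups did not overlap for 2 of 9, against 21.6% of all kept genes, and 3 of 9 passed an unadjusted p under 0.05, against 40.0%. Casp9 was the other of those 3, with 7.24, 7.09 and 6.36 FPKM in HBSS libraries and 9.50, 9.66 and 6.99 FPKM in cell media libraries. These differences rest on cell media replicates 1 and 2. With cell media replicate 3 alone as the control, assumed to vary like the other groups, the log2 difference was 0.24 for Casp8, -0.14 for Bcl2l1 and -0.02 for Casp9, with 0 of 9 at an unadjusted p under 0.05 (6.84% of all kept genes). Xiap turned round, with a log2 difference of 0.34 with 12 libraries and -0.18 with 10. So did Bak1, with -0.17 and 0.16, and Bcl2l11, with 0.03 and -0.13. Bcl2 had -0.05 with 12 libraries and -0.41 with 10, the largest of the 9 in size with 10, and Bid 0.15 and 0.08. Across all kept genes the median log2 difference between HBSS and cell media was 0.10, and 0.01 after median-of-ratios scaling, and it ran from -0.12 in the shortest to 0.27 in the longest class by exon length. The part of length and of these libraries in the differences was not tested beyond these values.

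Around these genes, 49 others of the apoptosis machinery were listed in 9 groups by role, of which 42 were kept. At 100 µM against HBSS, 21 stood higher and 21 stood lower, and their median difference was -0.02 (log2), against -0.01 over all kept genes. Limma called 0 of 42 with 12 or 10 libraries, with 4 of 42 at an unadjusted p under 0.05 with 12 libraries, where 7.76% of all kept genes were, and 19 of 42 with 10, where 32.2% were. Groups did not overlap for 7 higher and 12 lower genes, where 16.5% of all kept genes were higher and 17.6% lower without overlap. Over these 19 genes the adjusted p in limma ran from 0.374 (Ddit3) to 0.768 (Birc2) with 12 libraries and from 0.0514 (Ddit3) to 0.306 (Casp6) with 10.

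Among pore formers, Bax followed the direction of Bak1. Bax had 57.1, 63.1 and 63.0 FPKM in 100 µM libraries and 49.3, 50.8 and 52.8 FPKM in HBSS libraries, without overlap. Its log2 difference was 0.26, with an adjusted p in limma of 0.728 with 12 libraries and 0.058 with 10. Its exon length of 1576 bases is in the shortest class, whose median difference was 0.12. With the length trend removed, the log2 difference of Bax was 0.17. Bok, the other pore-forming relative, stayed at or below 0.0273 FPKM in all libraries. The ratio of Bcl2 to Bax FPKM was 0.119 ± 0.0315 at 100 µM and 0.200 ± 0.0427 in HBSS (SD, n = 3 each). It is no separate result, since Bcl2 was lower and Bax higher without overlap.

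The BH3-only genes did not move one way. Of 5 kept, 2 stood higher and 3 lower at 100 µM, with a median of -0.10. Bad, which binds BCL2 and BCL-XL, had a log2 difference of 0.30, and Pmaip1, which encodes the MCL1 binder NOXA, 0.16, both without overlap. Bbc3, which encodes PUMA, stood lower at 7.23, 6.37 and 7.64 FPKM in 100 µM libraries and 10.6, 9.64 and 9.82 FPKM in HBSS libraries, without overlap. Its log2 difference was -0.45, with an adjusted p in limma of 0.625 with 12 libraries and 0.0556 with 10. Its exon length of 2124 bases puts it in the class of genes from 1949 to 3795 bases, whose median difference was 0.05. Hrk stayed at or below 0.0413 FPKM.

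Of the other survival genes, 2 of 5 were kept. Bcl2l2, which encodes BCL-W, had 6.18, 4.85 and 5.21 FPKM in 100 µM libraries and 7.17, 6.80 and 6.44 FPKM in HBSS libraries, without overlap, and a log2 difference of -0.29 (adjusted p in limma 0.625 with 12 libraries and 0.0902 with 10). Bcl2a1d stayed at or below 1.52 FPKM and Bcl2a1a and Bcl2a1b at or below 0.405 FPKM. These genes are near-identical copies, so their reads may be split between them and the values are uncertain. Bcl2l10 was not analysed here.

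Downstream of the pore, Apaf1 and Cycs went opposite ways. Apaf1, the core of the apoptosome, had a log2 difference of -0.21, and Cycs, cytochrome c, one of 0.18, each without overlap at 100 µM against HBSS. Of the 7 other caspases and substrates, 6 stood higher and 1 lower, with a median of 0.06. Casp2, a caspase with an initiator-like structure, stood lower (-0.25), and the executioner Casp6 (0.10) and Dffa (0.18), the inhibitor of the caspase-activated DNase, higher, without overlap. Casp2 had the smallest adjusted p of that list, 0.647 with 12 libraries and 0.0631 with 10 in limma. Apaf1 and Casp2, with exon lengths of 9028 and 7057 bases, are in the longest class, whose median difference was -0.11.

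Relatives and regulators of XIAP were mostly lower. Of 5 kept IAP-related genes, 4 stood lower and 1 stood higher, and their median difference was -0.15 (log2), against -0.09 with the length trend removed. Birc2, which encodes cIAP1, and Xaf1, which encodes a XIAP-binding protein, stood lower without overlap, with log2 differences of -0.15 and -0.22. Of the 6 kept death receptor and adaptor genes, 5 stood higher and 1 lower, with a median of 0.07. The lower one was Cflar, which encodes FLIP, the inhibitor of caspase-8 activation. It had 14.3, 11.2 and 10.3 FPKM in 100 µM libraries and 20.3, 16.0 and 16.5 FPKM in HBSS libraries, without overlap. Its log2 difference was -0.53, with an adjusted p in limma of 0.627 with 12 libraries and 0.0704 with 10, and its exon length of 12669 bases is in the longest class.

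Proteins that control MCL1 and BAK after translation were listed as well. All 4 had groups that did not overlap, where 34.1% of all kept genes did not. Huwe1 (-0.32), a ubiquitin ligase for MCL1, Fbxw7 (-0.27), the substrate-binding part of another, and Usp9x (-0.30), the deubiquitinase that protects it, stood lower. Vdac2 (0.16), a mitochondrial channel that holds BAK, stood higher. Huwe1 and Usp9x have exon lengths of 23507 and 15051 bases, and the median of the list was -0.29 as measured and -0.10 with the length trend removed.

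Among 7 transcription factors known to act on family genes, 2 stood higher and 5 lower at 100 µM. Ddit3, which encodes the stress factor CHOP, a regulator known to act on Bcl2 and Bcl2l11, had 16.1, 14.2 and 15.7 FPKM in 100 µM libraries and 26.5, 24.0 and 22.6 FPKM in HBSS libraries. The groups did not overlap, and the gap between them was wider than the range within either. Its log2 difference was -0.64, with an adjusted p in limma of 0.374 with 12 libraries and 0.0514 with 10, the closest to the threshold among the 42 genes. Ddit3 was also the 1 gene of the 42 called in HBSS against cell media, where 0.0166% of all kept genes, 2 in number, were called. Leaving out cell media replicate 1 or 2, or any 1 HBSS library, left 0 genes called in the whole table. For Ddit3 the log2 difference was -1.02, with an adjusted p in limma of 0.0284. Without cell media replicates 1 and 2 the difference was nearly as large, -0.98 (SE 0.15), with an adjusted p in limma of 0.372. Foxo3, a forkhead factor, stood lower at 100 µM, with a log2 difference of -0.14 and no overlap. Its adjusted p in limma was 0.681 with 12 libraries and 0.108 with 10. Its exon length of 7571 bases is in the longest class, whose median difference over all kept genes was -0.11.

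**Figure D4:**
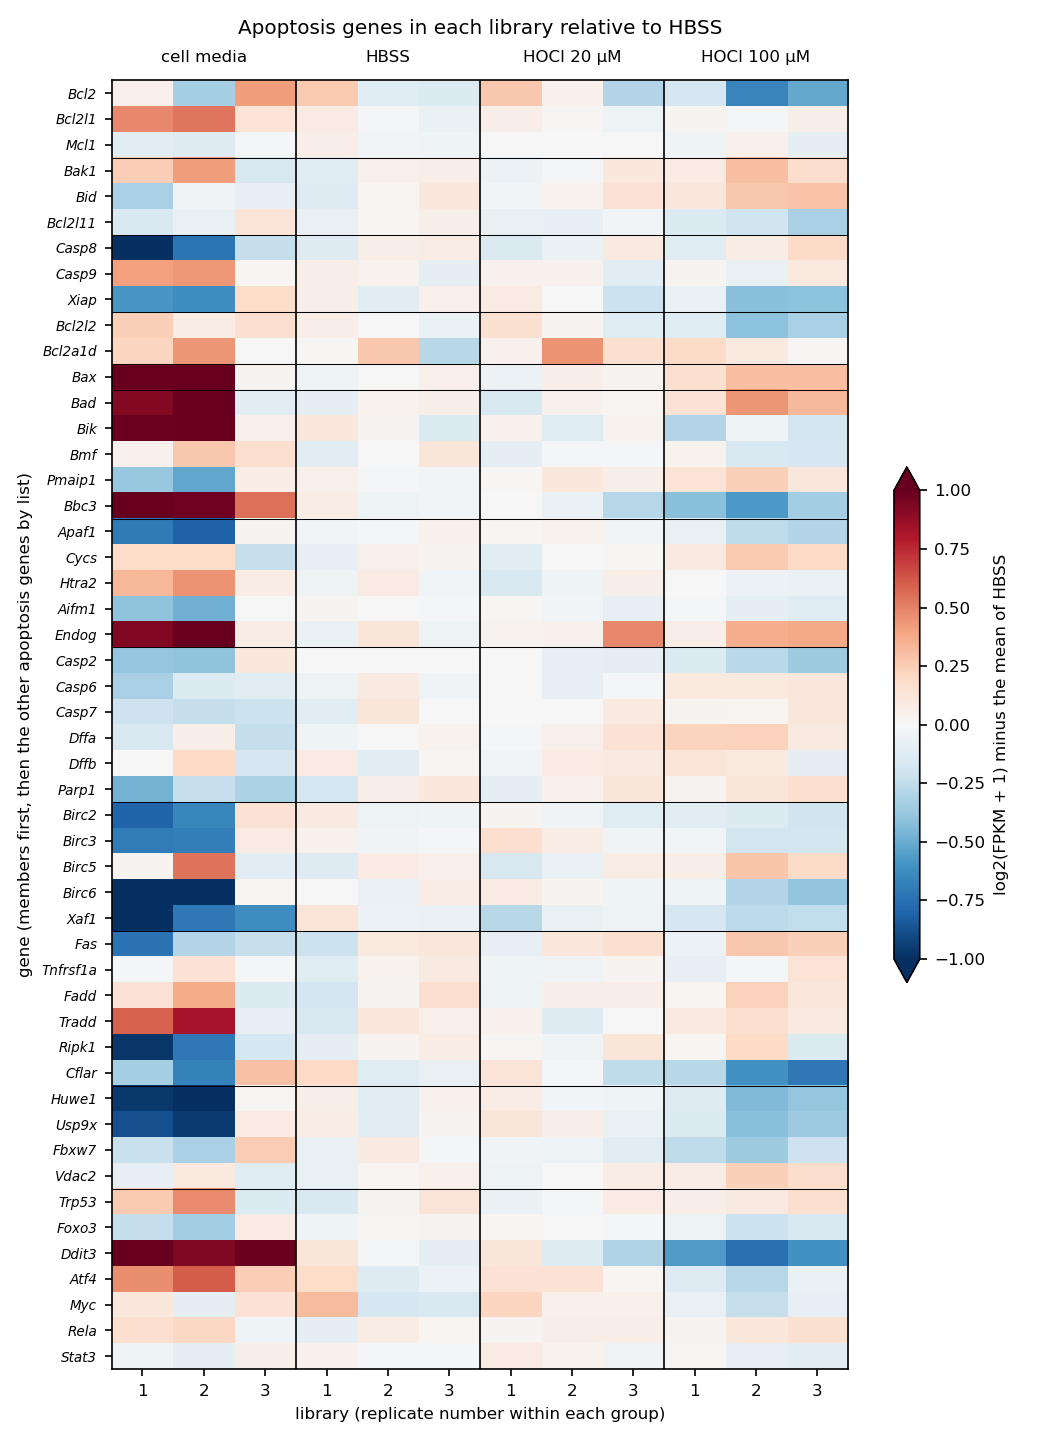
Log2(FPKM + 1) minus its HBSS mean for the 9 genes (top rows) and other apoptosis genes (rows, by role) in each library (columns, by group and replicate number); red is above and blue below the HBSS mean, with colours capped at 1 and -1. Cell media replicates 1 and 2 differ most from HBSS, 20 µM libraries least, and Ddit3, Cflar and Bcl2 are blue and Bax, Bad and Bid red in 100 µM libraries.

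At 20 µM against HBSS, 24 of the 42 stood higher and 18 lower, none without overlap, where 7.69% of all kept genes had none. Limma called 0, with 0 at an unadjusted p under 0.05, where 1.08% of all kept genes were. In HBSS against cell media, 22 stood higher and 20 lower, with 6 higher and 4 lower without overlap, where 12.7% of all kept genes were higher and 8.91% lower without overlap. Bbc3 stood lower in HBSS (-0.94) and Xaf1 (0.83) and Ripk1 (0.62), the kinase below death receptors, higher, with adjusted p of 0.0711, 0.0708 and 0.0711 in limma. Without cell media replicates 1 and 2, the differences were -0.55, 0.62 and 0.18, with adjusted p in limma of 0.585, 0.509 and 0.675.

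The genes most like a given one were sought over the 10 libraries by Pearson's r of log2 values, which share depth, length trend and group differences. For Mcl1, the most abundant of the 9, the 3 closest genes were Gm9776 (0.901), Snhg6 (0.864) and Sirt1 (0.861), and 1 gene reached 0.9. For Bcl2l11, they were 4933431C10Rik (0.984), Gga3 (0.976) and Nfya (0.969), and 143 genes reached 0.9. These values are a description of 10 libraries.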

How the data were processed

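The deposited table held FPKM values for 12 libraries. Per the submitters' processing notes, the authors used HISAT2 and featureCounts with GRCm39; their versions, settings and strand use are not given in the sources used here. Sequencing instruments are named without saying which library ran on which.

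Gene symbols and exon lengths came from GENCODE M21, of another build than GRCm39, so no coordinates were taken from it, and the promoter windows are from RefSeq on GRCm38.p6; 28302 of 28977 IDs matched. Reads were recovered from the spacing of values below 1 FPKM, 98.26% of which were whole within 0.01 (2% by chance). Counting error for these genes was at most 4.08%, and intervals of the fits cover the spread between libraries.

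Genes with at least 1 FPKM in at least 3 libraries were kept. Each comparison was tested with limma 3.58.1 (R 4.3.3) on log2(FPKM + 1), which understates changes of low genes, with 1 mean per group, a mean-variance trend and two-sided p adjusted over 12026 genes. An exact permutation test of 3 against 3 libraries cannot go below p = 0.1, so none was run. Tables and plots used Python 3.11.15, numpy 2.4.6, pandas 2.3.3 and matplotlib 3.10.9.

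The genes and lists were chosen with earlier results of these data known. Named were the 9 genes, and of each list every called gene, the one with the smallest p at 100 µM against HBSS and those without overlap there; Ripk1, Bok, Hrk, Bcl2a1a, Bcl2a1b and Bcl2a1d were named after their values were seen, and 1 listed gene is not reported here by name. Alternatives were other pseudocounts, filters, scalings, models and left-out libraries, and, added after seeing the data, taking out a loess curve (span 0.5) of exon length within every library.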

Additional observations from a re-analysis of the deposited data

How the results depend on the processing

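Of 972 recomputed differences (36 differences of the 9 genes under 27 alternatives), 876 kept direction and side of the threshold, 29 passed the threshold and 67 changed direction. The differences of Bcl2, Bak1, Bid, Bcl2l11 and Xiap between 100 µM and HBSS, or between 100 µM and 20 µM, never changed direction. Part of this was fixed beforehand. Groups of Bcl2, Bak1, Bid and Bcl2l11 did not overlap at 100 µM against HBSS, so leaving out a library could not reverse them. Among HBSS and HOCl groups, fits with 10 libraries or the replicate block return the same differences as the main fit. So does leaving out a library of an uncompared group. The 876 therefore include differences that could not change direction. The cause of the changes below was not tested.

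The number of genes called over the whole table changed with many settings. At 100 µM against HBSS the number was 0 with 12 libraries, 29 with 10, 26 with 10 and the length trend removed, 2 with only these groups in the model, 1 with no filter and 3401 with library weights, whose fit stopped before converging. At 100 µM against 20 µM it was 0, then 1 with only these groups, 11 with no filter and 6084 with weights. At 20 µM against HBSS it was 0, then 6 with no filter and 158 with weights. For HBSS against cell media it was 2, then 1 with a pseudocount of 0.5, 5 with no filter, 1 with a mean of at least 5 FPKM, 4 with quantile normalization, 0 with only these groups, 0 with 10 libraries, 0 with 10 and the length trend removed, 18 with 12 and the trend removed, 5 with no mean-variance trend, 7501 with weights and 4 with limma-voom. Leaving out 1 library gave 0 to 0 genes at 20 µM against HBSS, 0 to 5 at 100 µM against HBSS, 0 to 1 between the doses and 0 to 7852 for HBSS against cell media, the last without cell media replicate 3. Without that library Bcl2l1, Bak1, Casp8, Casp9 and Xiap were called there.

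Groups share replicate numbers, and the check made did not settle whether these pair the libraries. Same-numbered HBSS and HOCl libraries correlated at -0.062 to 0.414 in their deviations, over 0.1 in 5 of 9 pairs. Not every library correlated best with its own number. For 20 µM with HBSS, 100 µM with HBSS and between the doses, replicate 1 libraries correlated at 0.351, 0.264 and 0.377. Those of replicate 2 correlated at -0.062, 0.075 and 0.055, and those of replicate 3 at 0.123, -0.025 and 0.414. With the replicate number as a block, 193 genes were called in HBSS against cell media with 12 libraries (Casp8 among them, adjusted p 0.0431), and with 10 libraries 2979 at 100 µM against HBSS, 2088 between the doses and 0 in HBSS against cell media. The block with 10 libraries called Bcl2, Bak1, Bid, Bcl2l11 and Xiap at 100 µM against HBSS (limma adjusted p 0.0151 to 0.046). Between the doses it called Bcl2 and Bid. Library weights, whose fit stopped before converging, called the same 5 in both, among 3401 and 6084 of the 12026 kept genes. In HBSS against cell media the weights called Bcl2l1, Bak1, Bid, Casp8, Casp9 and Xiap, among 7501. The block fit with 10 libraries turned the HBSS against cell media differences of Mcl1 to -0.020, Bak1 to 0.21, Bcl2l11 to -0.13 and Xiap to -0.26.

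Other changes of direction were mostly of values near 0. At 20 µM against HBSS, median-of-ratios scaling gave -0.00053 for Bcl2, -0.0074 for Mcl1 and -0.00098 for Bak1. Quantile normalization gave -0.0084 for Bcl2, -0.0097 for Bcl2l1, -0.0088 for Mcl1 and -0.0010 for Bak1. The length trend removed gave -0.00080 for Mcl1 with 12 or 10 libraries, and weights gave -0.054 for Bak1, 0.047 for Casp9 and 0.027 for Xiap. At 100 µM against HBSS, quantile normalization gave -0.046 for Bcl2l1 and -0.025 for Casp8, and weights 0.030 for Mcl1 and -0.013 for Casp9. Between the doses, quantile normalization gave -0.036 for Bcl2l1, and weights -0.0053 for Bcl2l1, 0.012 for Mcl1 and -0.059 for Casp9. For HBSS against cell media, median-of-ratios scaling gave -0.035 for Mcl1 and -0.073 for Bcl2l11, and quantile normalization -0.081 for Bcl2l11. There, 10 libraries gave 0.16 for Bak1, -0.13 for Bcl2l11 and -0.18 for Xiap. The length trend removed gave -0.21 for Bcl2l11 with 12 libraries and, with 10, 0.15 for Bak1, -0.091 for Bcl2l11 and -0.14 for Xiap.

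Leaving out 1 library gave differences at 20 µM against HBSS of -0.12 to 0.16 for Bcl2, -0.020 to 0.052 for Bcl2l1, -0.020 to 0.036 for Mcl1, -0.052 to 0.043 for Bak1, -0.014 to 0.10 for Bid, -0.11 to 0.012 for Casp8, -0.054 to 0.045 for Casp9 and -0.11 to 0.042 for Xiap. At 100 µM against HBSS it gave -0.0050 to 0.067 for Bcl2l1, -0.065 to 0.0091 for Mcl1, -0.023 to 0.13 for Casp8 and -0.033 to 0.061 for Casp9. Between the doses it gave -0.015 to 0.044 for Bcl2l1, -0.067 to 0.0037 for Mcl1 and -0.028 to 0.065 for Casp9. For HBSS against cell media it gave -0.23 to 0.14 for Bcl2 and -0.028 to 0.11 for Bcl2l11. With 3 libraries a group, differences at 20 µM within the intervals given are not excluded.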
